A study of Bos taurus with 2 samples.

Results

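The aminoacyl-tRNA synthetases were examined in mammary tissue of cows with and without mastitis. The family was taken as a fixed set of 36 genes, 20 for the cytosolic forms and 16 for the mitochondrial forms, and the probes were those whose gene name or current RefSeq symbol was one of them. A total of 91 probes covered 35 of the 36 genes, out of 17376 genes with a probe. The mitochondrial glutamyl form EARS2 had no probe under this rule. The only probe of the prolyl form PARS2 was not above background on either array. The remaining 34 genes, all 20 cytosolic and 14 mitochondrial forms, were measured on both arrays, among 12472 genes measured in all.

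The data were 1 array labelled mastitis and 1 labelled normal, each of Cy3-labelled RNA from the mammary gland of female Chinese Holstein cattle. By the study's methods, all cows were adult, in late lactation, fed a total mixed ration and not given recombinant somatotropin, and tissue was taken shortly after slaughter. Antibiotics were given to the cows with clinical mastitis alone, which means that effects of the disease and of the drugs cannot be told apart. The methods count 3 cows in each group and say that specimens were hybridised one by one, so an array would be 1 cow, but which cow was not given in the sources used here. With 1 array per condition there was no replicate check, and no p-value is reported for any gene.

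An aminoacyl-tRNA synthetase joins an amino acid to its matching tRNA, the step that sets the genetic code before the ribosome reads a message. Most amino acids have separate nuclear genes for the enzyme of the cytosol and that of the mitochondrion, while GARS (glycine) and KARS (lysine) each serve both compartments. Several cytosolic enzymes sit in a large multisynthetase complex held together by the scaffold proteins AIMP1, AIMP2 and EEF1E1. The enzymes fall into class I and class II by the fold of the catalytic domain. In the lactating gland, which makes large amounts of milk protein, charged tRNA is a direct input to secretion. Many cytosolic synthetase genes are known targets of ATF4, the transcription factor of the amino acid response, and WARS is known to be induced by interferon gamma.

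The signal of a probe is its net fluorescence, that is, the median of the spot less the mean of the 153 negative controls. The 75th percentile of this signal over all probes was 210 for mastitis and 128 for normal tissue, and scaled signals are net signals divided by that percentile. A gene's log2 ratio is the mean over its probes of scaled mastitis over scaled normal signal, so that negative values are lower in mastitis. The SD of this ratio was 0.17 over replicate spots of a probe and 0.44 over different probes of a gene, both technical. Across all genes the median log2 ratio was -0.15. It was 0.12 with scaling on spike-in probes and 0.57 without scaling, so the synthetases are also described relative to all genes. Milk secretion genes, the defining markers of lactating tissue, were bright on the normal array and low on the mastitis array, with summed scaled signals of 12077 and 855. Fewer cells of a type and less RNA per cell cannot be told apart in such tissue.

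Most synthetase genes differed by less than 2-fold between the arrays. Of the 34 measured genes, 32 were within 2-fold, 2 were lower in mastitis by at least that factor and 0 were higher. Among all genes the corresponding shares were 9.12% lower and 2.29% higher. The 2 were WARS, the cytosolic tryptophanyl form, and VARS2, the mitochondrial valyl form. The cytosolic forms had a median log2 ratio of -0.23 and the mitochondrial forms of -0.17, beside -0.15 for all genes. The cytosolic ratios had a middle range (25th to 75th percentile) from -0.53 to -0.17, narrower than that of all genes, which ran from -0.52 to 0.20. At a threshold of 1.5-fold, 4 cytosolic and 4 mitochondrial forms were lower and 0 were higher, where 21.6% of all genes were lower and 7.79% higher. Those lower by this measure were WARS, GARS, TARS and SARS in the cytosol, and VARS2, TARS2, RARS2 and WARS2 in the mitochondrion. With a net signal of at least 50 asked of both arrays, the 4 cytosolic forms and WARS2 (-0.63) still passed. TARS2 (-0.11) and RARS2 (-0.49) then did not, and VARS2 was not measured. Of the cytosolic forms 16 of 20 lay below the median of all genes, and of the mitochondrial forms 7 of 14. With the normexp background correction the cytosolic count was 11 of 20, and without a filter on dim probes it was 9 of 20.

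**Figure D1:**
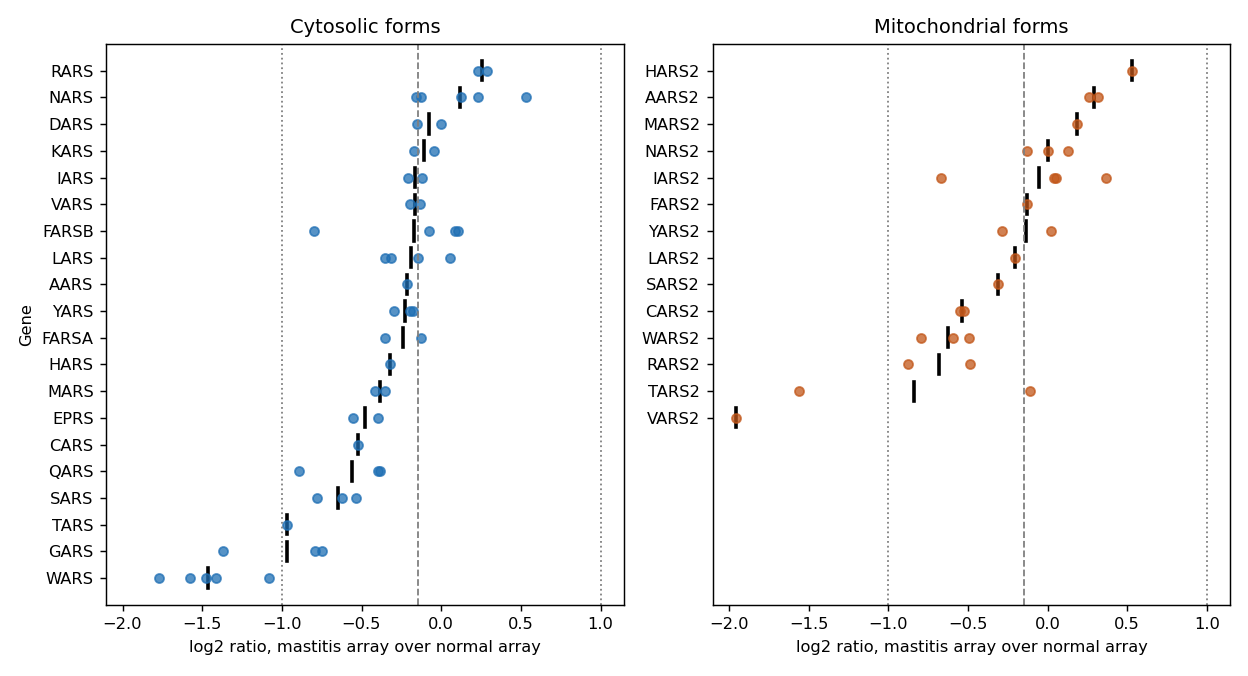
The 20 cytosolic and 14 mitochondrial synthetase genes measured on both arrays, with the log2 ratio of mastitis over normal on the horizontal axis. Each point is a probe and each black bar the mean of a gene, with a dashed line at the all-gene median (-0.15) and dotted lines at 2-fold. WARS at the bottom left and VARS2 at the bottom right are the 2 genes whose mean lies beyond the lower 2-fold line.

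WARS, which charges tryptophan, was the lowest cytosolic form, with 5 probes that were all measured. Its brightest probe had a net signal of 514 in mastitis and 834 in normal tissue. The next brightest read 205 and 373, and the third 139 and 236. The dimmer ones read 66 and 85, and 13 and 27. All 5 probes were thus lower in mastitis before any scaling, while 60 of the 76 measured synthetase probes, like 83.3% of all measured probes of genes, were higher on the mastitis array. After scaling, the 5 log2 ratios ran from -1.77 to -1.08 and their mean was -1.46 (SD 0.25, 5 probes), a 2.76-fold lower signal. Of all measured genes, 4.09% had a lower ratio. WARS was the lowest of the cytosolic forms in the main setting and in all 14 alternatives. Those that shift all ratios by the same amount could not change this order. The fold of WARS lay between 1.68, without scaling, and 2.79. With the normexp correction it was 2.02.

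**Figure D2:**
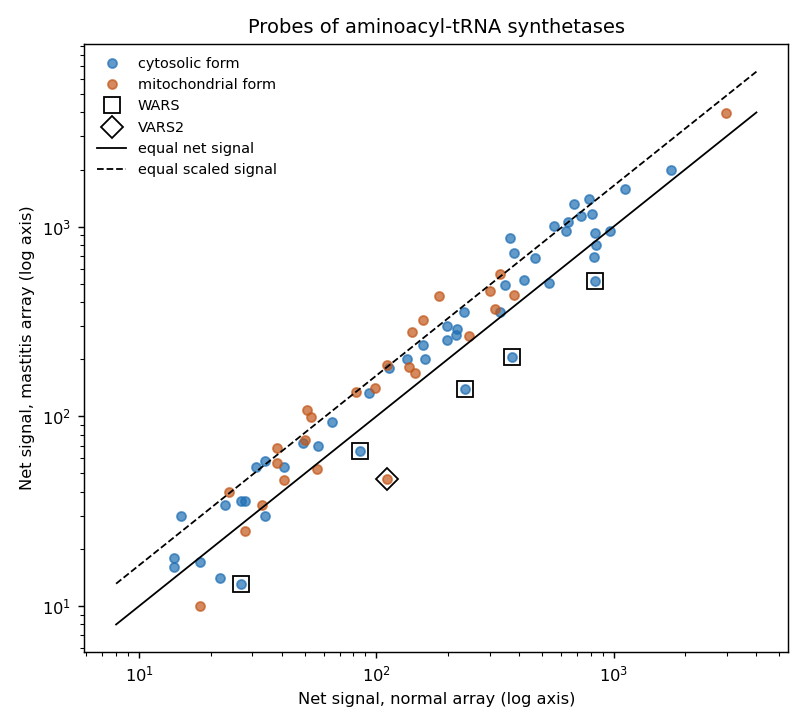
Net signal of each synthetase probe measured on both arrays, normal array on the horizontal and mastitis array on the vertical axis, both log axes. The solid line marks equal net signal and the dashed line equal scaled signal. The 5 probes of WARS (squares) and the probe of VARS2 (diamond) are among the 16 of 76 probes below the solid line. Most probes lie between the lines or near the dashed one.

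GARS and TARS stood just inside the 2-fold line. The probes of GARS, the glycyl form, had net signals of 943, 506 and 14 on the mastitis array against 965, 534 and 22 on the normal array. Its log2 ratio was -0.97 (SD 0.35, 3 probes), and -0.77 with the probes of at least 50 net signal alone. TARS, the threonyl form, had a single probe with 695 and 828 and a log2 ratio of -0.97. GARS, TARS, WARS and VARS2 were the 4 members for which every measured probe was lower in mastitis before scaling. The seryl form SARS followed. Its brightest probe read 1977 in mastitis and 1745 in normal tissue, and its log2 ratio was -0.64 (SD 0.12, 3 probes). All 3 probes of SARS lay below 0 after scaling. In the other 4 genes this was fixed in advance, since scaling lowered every ratio.

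RARS, the arginyl form, and NARS, the asparaginyl form, were at the other end of the cytosolic order. The probes of RARS read 730 and 30 in mastitis and 379 and 15 in normal tissue, a log2 ratio of 0.26 (SD 0.04, 2 probes). NARS had 5 probes, with net signals from 72 to 1316 in mastitis and from 49 to 684 in normal tissue. Its ratio was 0.12 (SD 0.28), with 3 probes above 0 and 2 below, so its difference was smaller than the spread over its own probes. These were the 2 cytosolic forms above 0. Both stayed above 0 in all 14 alternatives, with a lowest value of 0.041 for RARS under normexp.

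Between these ends, 14 cytosolic forms differed by less than 1.5-fold. Of the forms for amino acids with a charged or amide side chain, the aspartyl form DARS had a ratio of -0.076 (SD 0.10, 2 probes), KARS of -0.11 (SD 0.09, 2 probes), the histidyl form HARS of -0.32 from a single probe, and the glutaminyl form QARS of -0.56 (SD 0.29, 3 probes). EPRS, one protein that charges both glutamate and proline, had a ratio of -0.48 (SD 0.11, 2 probes). The enzymes for branched-chain amino acids were close together, with IARS (isoleucine) at -0.16, LARS (leucine) at -0.19 and VARS (valine) at -0.17. The subunits of the phenylalanyl enzyme were also alike, FARSA at -0.24 (SD 0.16, 2 probes) and FARSB at -0.17 (SD 0.43, 4 probes). The alanyl form AARS (-0.22), the tyrosyl form YARS (-0.23), the methionyl form MARS (-0.39) and the cysteinyl form CARS (-0.52) completed the set. AARS and CARS rested on single probes, and that of CARS was dim, with net signals of 16 and 14. Neighbours in this order differed by less than the SD of 0.44 over probes of a gene, so their ranks cannot be read.

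The mitochondrial forms were spread more widely than the cytosolic ones, with a middle range from -0.60 to -0.013 and more single probes. VARS2 had the lowest ratio of the family. Its measured probe had a net signal of 47 in mastitis and 111 in normal tissue, and the log2 ratio was -1.95, a 3.87-fold lower signal. A second probe read 6 and 10 and was above background on the normal array alone. The fold of VARS2 lay between 2.34, with normexp, and 3.87 in the settings that measured it. With a net signal of at least 50 asked of both arrays it was not measured.

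Apart from VARS2, the mitochondrial forms were within 2-fold. The threonyl form TARS2 was -0.84, but its probes disagreed (SD 1.02, 2 probes). The bright one read 458 in mastitis and 302 in normal tissue, a ratio of -0.11, and the dim one 10 and 18. The arginyl form RARS2 (-0.68, SD 0.27, 2 probes), the tryptophanyl form WARS2 (-0.63, SD 0.15, 3 probes) and the cysteinyl form CARS2 (-0.54, SD 0.02, 2 probes) had probes that agreed in sign. WARS2, the partner of WARS in the mitochondrion, read 266, 169 and 53 on the mastitis array against 245, 145 and 56 on the normal array. On the higher side were the histidyl form HARS2, with 433 and 183 from 1 measured probe and a log2 ratio of 0.53, and the alanyl form AARS2. The measured probes of AARS2 read 321 and 277 in mastitis and 157 and 141 in normal tissue, a ratio of 0.29 (SD 0.04, 2 probes). The methionyl form MARS2 was 0.19 from a single probe, but -0.013 with normexp and -1.07 when its dim second probe was kept, so its direction was not settled. The others, SARS2, LARS2, YARS2, FARS2, IARS2 and NARS2, lay between -0.31 and 0.00034.

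The medians of the cytosolic and mitochondrial forms were close. The cytosolic one was 0.064 below the mitochondrial median, and the difference, cytosolic minus mitochondrial, lay between -0.067 and 0.040 over the alternatives. Forms that charge the same amino acid could be compared for 14 pairs, with FARSA set against FARS2. The mitochondrial form had the higher ratio in 9 pairs and the cytosolic form in 5, with a median of 0.11 for mitochondrial minus cytosolic. In 6 pairs the ratios were more than 0.44 apart. The mitochondrial form was the higher in the histidyl (by 0.85), tryptophanyl (0.84), methionyl (0.57) and alanyl (0.51) pairs. The methionyl order rests on the unsettled value of MARS2. The cytosolic form was the higher in the valyl pair (by 1.79) and the arginyl pair (0.94). The cysteinyl and leucyl pairs were the closest, each 0.014 apart. Of these 6 pairs, the tryptophanyl and arginyl ones had several probes for both genes.

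**Figure D3:**
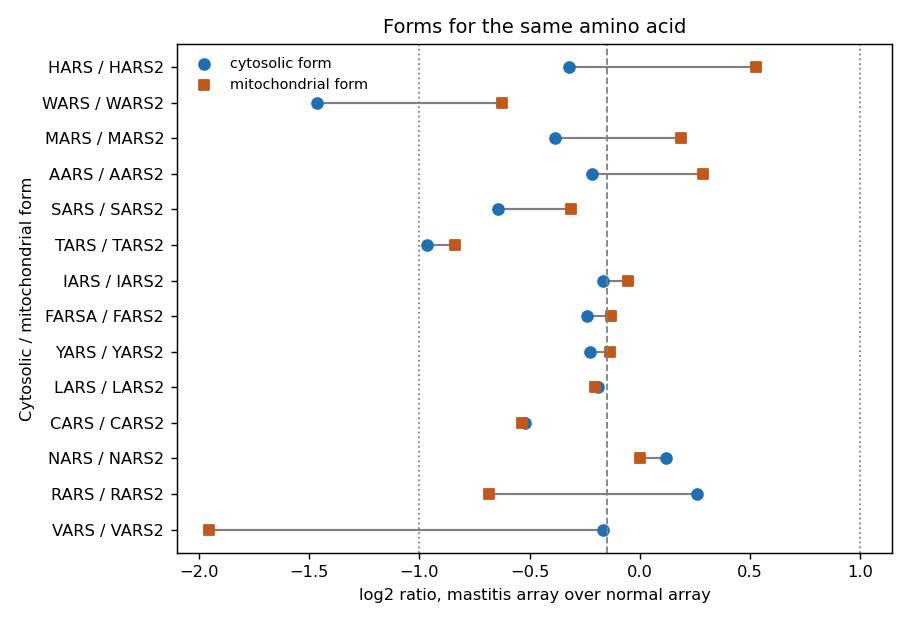
The 14 measured pairs of cytosolic (circles) and mitochondrial forms (squares), with the log2 ratio of mastitis over normal on the horizontal axis. A dashed line stands at the all-gene median (-0.15) and dotted lines at 2-fold. Pairs are ordered from the mitochondrial form higher by 0.85 (HARS2 over HARS) to the cytosolic form higher by 1.79 (VARS over VARS2).

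HARS and HARS2 are next to each other in the RefSeq annotation of the bovine ARS-UCD2.0 assembly, and BPNT1 alone lies between EPRS and IARS2. The neighbours HARS and HARS2 had ratios of -0.32 and 0.53, and EPRS and IARS2 of -0.48 and -0.053. SARS2 and its neighbour MRPS12, a protein of the mitochondrial ribosome, were nearer to each other, at -0.31 and -0.24 (SD 0.06, 2 probes).

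The cytosolic forms were also described by their place in the multisynthetase complex. The 8 synthetases of the complex had a median of -0.18 and ratios from -0.56 to 0.26, and 0 of them were 1.5-fold apart. The 12 cytosolic forms outside it had a median of -0.28, with 4 at least 1.5-fold lower, which are the 4 named above. Among all genes 21.6% were at least 1.5-fold lower and 7.79% higher. The groups hold too few genes for these counts to set them apart. The scaffolds were within 1.5-fold, AIMP1 at 0.32 (SD 0.34, 2 probes), AIMP2 at 0.081 (SD 0.17, 3 probes) and EEF1E1 at -0.48 from 1 probe. By catalytic class, the medians of the cytosolic forms were -0.23 for the 9 class I genes and -0.23 for the 10 class II genes, leaving out EPRS, which holds a domain of each. Among the mitochondrial forms the medians were -0.37 for 8 class I genes and -0.064 for 6 class II genes.

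The 13 cytosolic forms listed as known ATF4 targets had a median of -0.39, and 12 of them lay below the median of all genes. The 7 other cytosolic forms had a median of -0.17, and 4 lay below it. The count of 12 was 8 with normexp and 7 without a filter on dim probes. Relative to all genes the first median lay between -0.30 and -0.11 over the settings, and the second between -0.088 and 0.093. The list holds WARS, GARS, TARS and SARS, and also NARS, which was above 0. Of 24 other measured genes of the amino acid response, 9 were lower by at least 2-fold and 0 higher, with a median of -0.58. Among all genes 9.12% were lower and 2.29% higher by that factor. The list was not uniformly low, since 15 genes were within 2-fold and 4 were above 0. ATF4 itself had a ratio of -0.39 (SD 0.14, 3 probes). PSPH, the last enzyme of serine synthesis, read 40 in mastitis and 136 in normal tissue (5.58-fold lower, single probe). Its mastitis signal was under the stricter net signal minimum of 50. PYCR1, an enzyme of proline synthesis, read 137 and 405 (4.85-fold lower, single probe). ASNS, asparagine synthetase, was lower by 3.28-fold (log2 SD 0.20, 2 probes), and the pseudokinase gene TRIB3 2.94-fold lower (SD 0.18, 2 probes). Without scaling the median of this list was 0.13, where that of all genes was 0.57.

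Among 17 measured genes of the interferon gamma response, to which WARS also belongs by its known regulation, 3 were at least 2-fold lower and 0 higher, with a median of -0.34. Of all genes, 9.12% were lower and 2.29% higher by that factor. The chemokine genes CXCL11 and CXCL9 were 9.38-fold and 2.32-fold lower. CXCL11 was dim in mastitis, at a mean net signal of 8.5 against 48.5. CXCL10 was 1.76-fold lower with a wide spread over its probes (SD 1.08, 3 probes), and the immunoproteasome gene PSMB9 was 8.39-fold lower (SD 0.20, 2 probes).

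Beside the rest of the translation machinery, the synthetases were placed between the cytosolic ribosomal proteins and the genes of tRNA maturation. For the counts that follow, 9.12% of all genes were at least 2-fold lower and 2.29% higher. The 83 cytosolic ribosomal protein genes had a median of -0.40 with 1 at least 2-fold lower (RPL7A, 2.12-fold, SD 0.73, 2 probes). RPS26, RPLP0 and RPL10L were -0.80, -0.75 and -0.66. The 77 mitochondrial ribosomal protein genes had a median of -0.16 and none was 2-fold apart, the lowest being MRPS25 at -0.82. Of 8 elongation factors of the cytosol, all lay below the median of all genes. Their median was -0.53, and EEF1D was 2.72-fold lower with discordant probes (SD 1.31, 4 probes). The 31 initiation factors had a median of -0.16 and were all within 2-fold, with EIF4B at -0.81 and EIF4A2 at 0.69. The 13 mitochondrial translation factors had a median of -0.13, with MTIF3 at -0.95 and GFM2 at 0.54, and the 32 genes of tRNA maturation and editing had a median of 0.051, with RPP40 at -0.96 and QTRT2 at 0.59. The width of the middle range was 0.37 for the cytosolic synthetases, 0.23 for the cytosolic ribosomal proteins and 0.37 for the mitochondrial ones.

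**Figure D4:**
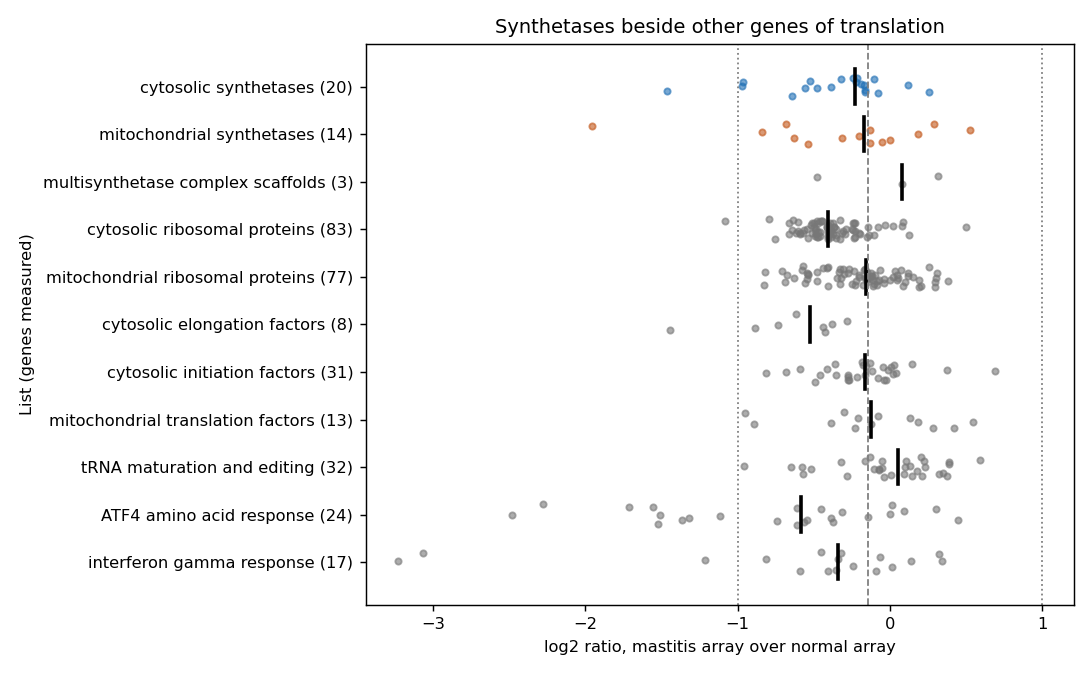
Measured genes of the synthetase lists and of related lists, numbers of genes in brackets, with the log2 ratio of mastitis over normal on the horizontal axis. Each point is a gene, moved vertically for legibility, and each black bar a list's median, with a dashed line at the all-gene median (-0.15) and dotted lines at 2-fold. The medians run from -0.58 (ATF4 amino acid response) to 0.081 (scaffolds of the multisynthetase complex), and those of the cytosolic and mitochondrial synthetases are -0.23 and -0.17.

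Markers of several cell types also differed between the arrays, some up and some down, and their part in the synthetase ratios was not tested. Of 11 measured milk secretion genes, 11 were at least 2-fold lower. Of 14 markers of luminal epithelium, 2 were at least 2-fold lower (MUC1 and ELF5) and 0 higher, while 7 were above 0, among them KRT18 (1.96-fold higher) and CLDN4 (1.59-fold higher). The summed scaled signal was 227 in mastitis and 355 in normal tissue. Of 9 macrophage markers 4 were at least 2-fold higher, among them CD163 (3.40-fold), with sums of 200.1 and 109, and MARCO was not above background. The 7 neutrophil markers included 6 lower by at least 2-fold, with sums of 26.1 and 76.2, and CXCR2 and MPO were not above background. Of 11 markers of B and plasma cells 2 were at least 2-fold lower (MZB1 and MS4A1), with sums of 118 and 144. Beside these counts, 9.12% of all genes were at least 2-fold lower and 2.29% higher. The counts for luminal epithelium and for B and plasma cells are too small to set apart from these shares. The list medians were 0.057 for luminal epithelium, 0.90 for macrophages, -1.70 for neutrophils and -0.42 for B and plasma cells. The medians of the remaining lists were 0.22 for myoepithelium, 0.031 for T and NK cells, 0.27 for endothelium, 0.49 for fibroblasts, -0.75 for 4 adipocyte and 2.21 for 3 erythroid markers.

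The sign of the small ratios depended on how the arrays were scaled. Median, spike-in, both-array percentile and no scaling shift every ratio by the same amount, so the order of genes could not change under them. Quantile scaling and the normexp correction could change the order, and WARS remained the lowest cytosolic form under both. Of the 34 measured synthetases, 6 were above 0 and 28 below, where 38.9% of all genes were above 0. Those below 0 numbered 15 under spike-in scaling and 5 when no scaling was applied. The 5 were WARS, VARS2, GARS, TARS and TARS2. Relative to the median of all genes, the cytosolic median lay between -0.14 and 0.0084 and the mitochondrial median between -0.16 and -0.0049 over all settings.

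**Figure D5:**
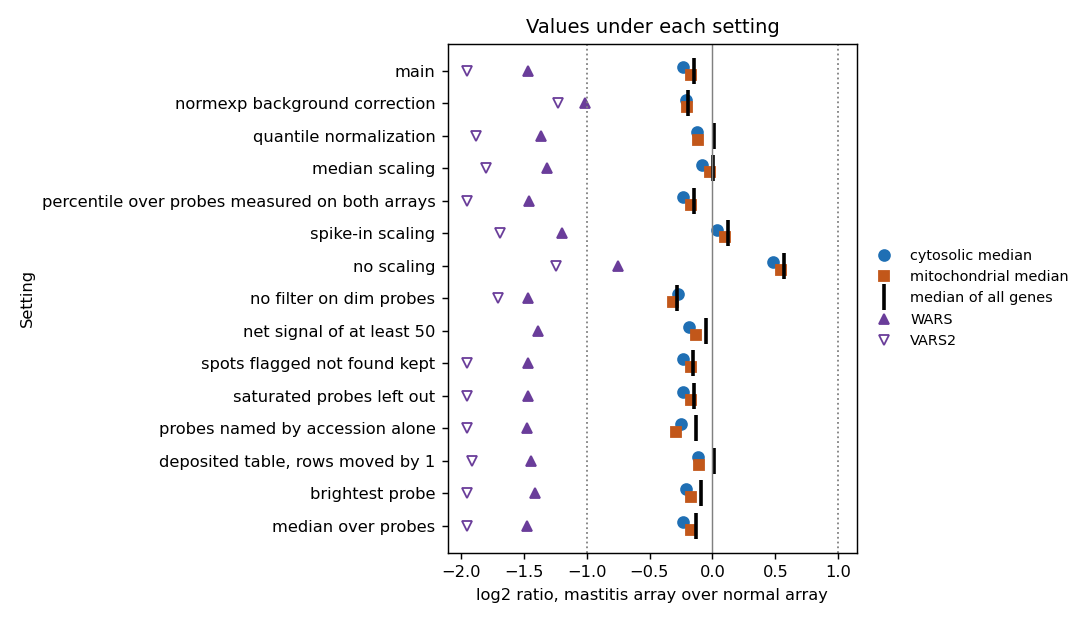
Log2 ratios of mastitis over normal (horizontal axis) under the main setting and the 14 alternatives. Circles and squares are the medians of the cytosolic and mitochondrial forms, black ticks the median of all genes, filled triangles WARS and open triangles VARS2, which was not measured with a net signal of at least 50. The group medians follow the median of all genes, and WARS lies to the left of them in every setting, from -1.48 to -0.75. Under median, spike-in, both-array percentile and no scaling all values move by the same amount, so their order is fixed.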

How the data were processed

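Cy3-labelled RNA was hybridised to an Agilent bovine oligonucleotide array. GenePix Pro output was deposited by the authors, holding per spot the Cy3 intensity less the mean of the negative controls, not scaled, the percent of saturated pixels and a flag. Agilent Feature Extraction appears in the submitters' notes and an Affymetrix chip in the methods. A table of log2 values was also deposited, and how the authors made it is not given in the sources used here. Its rows matched the signal of the following probe in sorted order (Spearman correlation 1.00, against 0.10 for the same row), so it served only as an alternative.

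Control spots were left out and spots of a probe averaged. A probe was above background when its net signal exceeded the mean of the negative controls by more than 2.6 SD (7.10 for mastitis, 8.74 for normal) and its spot was not flagged as not found. Of 43653 probes, 28562 were named by RefSeq accession, 5113 by symbol, 138 by synonym, 1388 by the name in the files and 8452 not at all. No member probe was saturated. Calls are 2-fold differences without a test, and 1 array per group limits the precision. The code was tested on simulated data. The members and lists were chosen with earlier results of these data known. Every synthetase was named, with up to 4 genes of each other list by size of ratio and all scaffolds. The 14 alternatives for a ratio were the normexp correction (offset 50, limma 3.58.1 in R 4.3.3), quantile, median, spike-in, both-array percentile and no scaling, no filter on dim probes, a net signal of at least 50, flagged spots kept, saturated probes left out, brightest probe or median over probes, probes named by accession alone, and the deposited table. For counts, thresholds of 1.5-fold and 3-fold and the omission of GARS and KARS were added. Python 3.11.15, numpy 2.4.6 and pandas 2.3.3 were used. The designed probe sequences were not used here.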

Additional observations from a re-analysis of the deposited data

How the results depend on the processing

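Of 110 recomputed counts and medians of the synthetase groups, 98 kept to within 1.5 times the reported count or within the SD over replicate spots of the reported median. Part of the 98 was fixed in advance. A scaling that shifts all ratios alike cannot change the difference between the cytosolic and mitochondrial medians. Leaving out saturated probes removed no member probe, so no group value or member ratio could change under it. The medians of the cytosolic and mitochondrial forms became 0.034 and 0.098 under spike-in scaling, and 0.48 and 0.55 when no scaling was applied. Without scaling, 0 cytosolic forms were at least 2-fold lower and 2 mitochondrial forms were at least 2-fold higher. The count of mitochondrial forms at least 2-fold lower was 3 without the filter on dim probes and 0 with a net signal of at least 50, which leaves out VARS2. The cytosolic count was 2 with the deposited table, its rows moved by 1, where TARS reached 2-fold. With a threshold of 1.5-fold, 4 cytosolic and 4 mitochondrial forms were lower, and with 3-fold 0 cytosolic forms were. Of 472 recomputed ratios of single members, 366 moved by less than the SD over replicate spots and 106 by more, among them all 34 under spike-in scaling and all 34 without scaling, and WARS and VARS2 kept their sign wherever measured. MARS2, at 0.19, was -0.013 with normexp and -1.07 without the filter on dim probes. Counts over all genes, 286 higher and 1137 lower here, came to 620 and 699 on the spike-in scale, 2524 and 331 unscaled, and 95 and 409 by normexp. No paired analysis was possible because each group has 1 array.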

Other observations

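TARS3, a second cytosolic threonyl-tRNA synthetase gene that is not among the 36, was looked at after the low value of TARS had been seen. Its brightest probe read 211 in mastitis and 64 in normal tissue, a log2 ratio of 1.01, and a dim one read 16 and 13, a ratio of -0.41. Another read 15 and 4 and was above background on the mastitis array alone. The mean of the measured probes was 0.30 (SD 1.01, 2 probes), so its direction is not settled.

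One further probe that the files give no gene name is described there as similar to a pig valyl-tRNA synthetase 2. It read 33 in mastitis and 29 in normal tissue, a log2 ratio of -0.53, beside -1.95 for the measured probe of VARS2. It was chosen after the value of VARS2 had been seen.

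Dim probes gave lower ratios than bright ones, part of which the filter can set in advance. Its thresholds of 7.10 for mastitis and 8.74 for normal are divided by 210 and 128, so near them low ratios pass more easily. How much this added was not tested. Of the 24 synthetases with several measured probes, the dimmest probe had the lowest ratio in 18 and the brightest in 5. The median log2 ratio was -0.20 for the 54 synthetase probes that reached a net signal of 50 on both arrays and -0.35 for the 22 dimmer ones. Over all genes the medians were -0.061 for 13796 probes and -0.20 for 9455.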
